A study of Mus musculus with 2 samples.

Results

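The genes described here are the ligands and receptors of axon guidance: the semaphorins with their plexin and neuropilin receptors, the ephrins with their Eph receptors, the Slits with their Robo receptors, and the netrins with Dcc, Neo1 and the Unc5 receptors. They were taken by symbol alone, as every gene listed in the expression table whose symbol carries one of these family names, which gave 66 of 14425 genes. 1 of the 66, Unc50, was caught by the prefix it shares with the Unc5 genes and is no netrin receptor. It stays in every count of 66 or 35 below and is left out of the family sums. The study sorted spiral ganglion neurons, the neurons that carry sound information from the cochlea to the brainstem, and profiled them one cell at a time with droplet 3′ RNA sequencing. It compared 2 libraries, 1 for each genotype, from mice of both sexes given tamoxifen at postnatal day 1 and harvested at postnatal days 27 to 29. The iCON library came from controls (Runx1-CreER/+; Ai14/+) and held 462 cells. The iCKO library came from mice that also carried 1 floxed allele of the transcription factor Runx1 (Runx1-CreER/Runx1F; Ai14/+) and held 407 cells. Both genotypes carried the tamoxifen-inducible Cre under Runx1 control and the Ai14 tdTomato reporter, and cells were sorted for tdTomato after digestion with collagenase and papain. The sort thus selects for cells in which the Runx1-driven Cre had acted, and its purity was not tested. How many mice were pooled in each library is not given in the sources used here.

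Growing axons read guidance proteins in their surroundings through receptors on the growth cone. Class 3 semaphorins are secreted and mostly signal through neuropilins paired with A-type plexins, while many other semaphorins bind plexins directly. Ephrins are membrane-bound ligands and signal in both directions with Eph receptor tyrosine kinases; Slits repel axons through Robo receptors; and netrins attract through Dcc and repel through Unc5 receptors. Many of these genes stay on in mature neurons, where they take part in synapse and process maintenance. Type I spiral ganglion neurons, which contact inner hair cells, are commonly divided into Ia, Ib and Ic classes marked by Calb2, Calb1 and Lypd1, and type II neurons contact outer hair cells.

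Levels are given in CPM, the unique molecular identifiers (UMIs, each counted as 1 RNA molecule) of a gene per 1000000 UMIs of a group of cells, summed over the group, with the exact 95% Poisson interval in parentheses. A 3′ assay counts transcript ends, so levels were not divided by gene length. Cells were placed in 4 classes by linear level per cell: Lypd1-high (at least 1000 CPM; 180 iCON and 126 iCKO cells), Lypd1-low (below 100; 256 and 261), Calb2-high (at least 10000; 86 and 227) and Calb2-intermediate (1000 to under 10000; 204 and 142). The Lypd1 and Calb2 classes overlap, and each is a range of 1 gene's level and no cell type: 23 and 45 Calb2-high cells, 31 and 46 Calb2-intermediate cells and 2 to 8 cells of the Lypd1 classes lay within 20% of a bound. Median Calb2 in Lypd1-high cells was 181 CPM in iCON and 4323 in iCKO, so the same Lypd1 bound took in cells with more Calb2 in iCKO. Depth was 22011292 UMIs in iCON (median 49725.5 per cell) and 13743824 in iCKO (median 33602), and the libraries shared 0 cell barcodes. The 6 listed neuronal markers summed to 18283 and 22422 CPM and the 1 listed myeloid marker, Csf1r, stood at 0.136 and 0.146. Cldn5, the 1 listed endothelial marker, stood at 0.0454 and 0.146. The fibroblast or bone markers Col1a1, Col1a2, Dcn and Lum summed to 101.6 and 82.5. Genes of the response to dissociation, such as Fos and Jun, summed to 300 and 234. Myelin and glial markers summed to 3910 and 2152, and 23.6% and 38.6% of cells had less than 500 CPM of myelin-gene RNA. Xist was detected, and no Y-linked gene, in 54.5% and 78.4% of cells. Runx1 itself stood at 88.1 CPM in iCON and 110.4 in iCKO; a 3′ count reads the transcript's end, the deleted part is not given in the sources used here, and the level is no check of the genotype. With 1 library per genotype there was no test, and every interval covers counting error only: it says nothing of the spread between mice or preparations.

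The guidance genes together, without Unc50, made up 1347 CPM in iCON and 1449 in iCKO. Levels were uneven: over all cells of both libraries 8 of the 66 stood at 50 CPM or more and 11, Unc50 among them, from 20 to under 50. A further 16 stood from 5 to under 20, 18 from 1 to under 5, and 13 under 1. Sema3e, a secreted semaphorin that binds Plxnd1 directly, was the highest, at 185 (179 to 191) in iCON and 198 (190.3 to 205) in iCKO, and ranked 1015th among all genes. The receptor tyrosine kinase Epha4 followed at 129 and 154, and the GPI-anchored Sema7a at 131 and 146. Their order is not settled: in iCON Epha4 at 129 (125 to 134) and Sema7a at 131 (127 to 136) had overlapping intervals, as they did in iCKO at 154 (148 to 161) and 146 (140.1 to 153). Next came Epha5 at 103 and 98.9, the plexin Plxna4 at 84.2 and 104, and the netrin receptor Unc5d at 72.2 and 81.1. Plxna1 (49.2 and 64.97) and the ephrin Efnb2 (52.1 and 57.7) closed the group above 50 over both libraries. With Unc50 set aside, these were the 8 highest genes in each library, in a slightly different order.

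**Figure D1:**
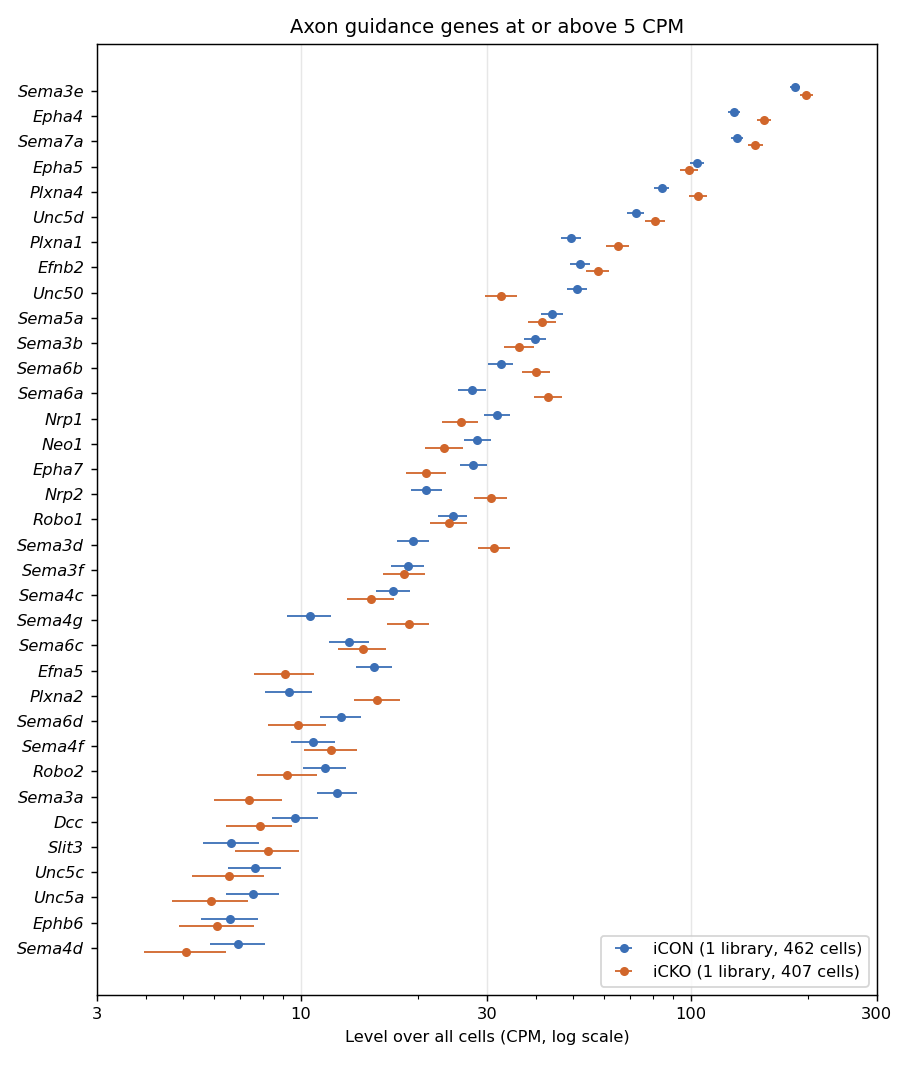
Levels over all cells of the 35 genes at or above 5 CPM, in order; the x axis is CPM on a log scale, points are 1 library each and lines are exact 95% Poisson intervals. Unc50 is the gene caught by its prefix; Sema3e leads in both libraries, and with Unc50 set aside the same 8 guidance genes hold the top places in each.

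By role, 19 semaphorins were listed. Of the secreted class 3 ligands, which together stood at 277 CPM in iCON and 292 in iCKO, Sema3e made up the larger share, followed by Sema3b (39.9 and 36.4), Sema3d (19.4 and 31.4), Sema3f (18.8 and 18.4), Sema3a (12.4 and 7.35) and Sema3c (1.64 and 1.31). Transmembrane class 4 semaphorins were lower, at 47.5 and 52.5 in sum: Sema4c, Sema4d, Sema4f and Sema4g passed 5 CPM over both libraries, while Sema4a and Sema4b did not. Classes 5 to 7 summed to 262 and 296, with Sema7a first, then Sema5a, Sema6b, Sema6a, Sema6c and Sema6d; Sema5b was under 1 CPM. Of 9 plexin receptors only Plxna4, Plxna1 and Plxna2 passed 5 CPM, and Plxna3, Plxnb1, Plxnb2, Plxnb3, Plxnc1 and Plxnd1 did not. Plxnd1, the plexin that binds Sema3e, stood at 4.36 (3.53 to 5.33) in iCON and 2.40 (1.65 to 3.37) in iCKO, far below Sema3e itself. The neuropilins Nrp1 (31.9 and 25.7) and Nrp2 (20.99 and 30.7) were both present.

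Among the ephrin ligands Efnb2 and Efna5 passed 5 CPM, and Efna1, Efna2, Efna4, Efnb1 and Efnb3 did not. EphA receptors were the larger side of that pair, with Epha4, Epha5 and Epha7 above 5 and Epha1, Epha2, Epha3, Epha6, Epha8 and Epha10 below. EphB receptors summed to only 19.6 and 19.3 CPM against 269 and 283 for EphA; Ephb6, which lacks kinase activity, passed 5, and Ephb1, Ephb2, Ephb3 and Ephb4 did not. Both listed Robo receptors passed, Robo1 at 24.5 and 23.9 and Robo2 at 11.5 and 9.24, and of their ligands Slit3 passed while Slit1 and Slit2 did not. The netrin receptors Unc5d, Neo1, Dcc, Unc5c and Unc5a passed and Unc5b did not. The 3 listed netrins, Ntn3, Ntn4 and Ntn5, summed to only 5.45 and 5.38 against 128 and 126 for the netrin receptors. In all, 35 of the 66 genes (34 without Unc50) reached the filter of 5 CPM over all cells of both libraries, as did 9754 of all genes. The other 31 were not compared except where named.

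For a comparison, the log2 ratio of 2 levels was taken after adding 1 CPM to each. In parentheses follows the exact conditional binomial 95% interval of the ratio of summed UMIs, taken without the added 1. A gene was counted as higher or lower at a log2 ratio of at least 1 in size, and again at 0.5, a bound added after values had been seen.

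Lypd1-high cells differed from Lypd1-low cells in a small group of guidance genes that kept the same direction in both libraries. The netrin receptor Dcc stood at 18.1 (15.4 to 21.1) in Lypd1-high and 3.01 (2.11 to 4.17) in Lypd1-low cells of iCON, and at 15.6 (12.1 to 19.9) and 3.84 (2.66 to 5.37) in iCKO, log2 ratios of 2.25 (2.06 to 3.15) and 1.78 (1.41 to 2.67). Sema3a, a secreted repellent that binds Nrp1, stood at 19.3 (16.6 to 22.5) against 6.52 (5.15 to 8.14) in iCON and 13.3 (10.02 to 17.2) against 3.51 (2.38 to 4.98) in iCKO, log2 1.44 (1.17 to 1.97) and 1.66 (1.26 to 2.60). For both genes the intervals of the classes did not overlap in either library. After thinning each cell to 20000 UMIs, Dcc was detected in 31.5% of Lypd1-high and 5.53% of Lypd1-low iCON cells, and in 26.4% and 6.92% of iCKO cells. Such shares had exact binomial 95% intervals that did not overlap between the Lypd1 classes for 9 of the 35 genes in iCON (6.56% of all genes tested) and 9 in iCKO (4.2%), and without thinning for 16 (8.89%) and 9 (4.33%). After thinning, Robo1, Dcc, Sema3a, Plxna4, Nrp1 and Sema3f were among those with the higher share in Lypd1-high cells of both libraries, and Unc5d with the lower. The 26 iCON and 20 iCKO cells between the Lypd1 bounds (100 to under 1000) had Dcc at 14.02 and 11.8 and Sema3a at 19.8 and 20.7 CPM. By these values alone Dcc lay between the classes, nearer to Lypd1-high, and Sema3a at or above its Lypd1-high level. The cells are few, so the order of either gene against Lypd1-high cells is not settled. The membrane semaphorin Sema4d, which binds B-type plexins, stood at 10.5 (8.49 to 12.9) against 4.18 (3.10 to 5.51) in iCON and 8.05 (5.58 to 11.3) against 3.96 (2.76 to 5.50) in iCKO, log2 1.15 and 0.87. Under other settings the ratio of Sema4d lay between 0.08 and 1.37 in iCON. In iCKO it lay between -0.39 and 0.99, with the same direction in 12 of 13.

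In counts, 3 of the 35 genes were higher in Lypd1-high cells of iCON at log2 1 (all genes: 1.01%) and 1 was lower (1.62%). In iCKO 2 were higher (1.09%) and 1 lower (1.03%). Past log2 1 in both libraries were Dcc and Sema3a, higher (0.748% of all genes), and Efna5, lower (0.83%). Without the type II-like cells described below, Efna5 was short of log2 1 in both libraries. The counts in either direction were then 5 (2.15% of all genes) in iCON and 3 (1.94%) in iCKO. With a pseudocount of 5 in place of 1, Efna5 in iCKO was -0.97, just short of 1, while Dcc and Sema3a stayed past it. All of these genes stand below 20 CPM over all cells, and 0 of the 35 passed log2 1 among genes of at least that level in either library. Past 0.5 in both libraries, 9 genes were higher (2.53% of all genes): Dcc, Sema3a, Sema4d, Sema4f, Sema3f, Nrp1, Robo1, Robo2 and Plxna2. In single libraries at 0.5, 9 (3.87%) were higher and 4 (4.66%) lower in iCON, and 10 (4.65%) and 6 (4.03%) in iCKO, with the share of all genes in parentheses. The median log2 ratio of the 35 was 0.02 in iCON and -0.08 in iCKO, beside 0.01 and 0.02 over all genes. Nrp1, the neuropilin that binds Sema3a, stood at 44.1 (39.9 to 48.7) against 22.6 (19.96 to 25.4) in iCON and 38.8 (33.1 to 45.3) against 19.7 (16.9 to 22.8) in iCKO. The Slit receptor Robo1 stood at 32.4 against 18.3 and 34.3 against 19.4, log2 0.79 (0.56 to 1.08) and 0.79 (0.49 to 1.15). Sema3f, a ligand of Nrp2, had log2 ratios of 0.81 and 0.75, Robo2 of 0.97 and 0.65, Sema4f of 0.96 and 0.78, and Plxna2 of 0.63 and 0.98. Under other settings the ratio of Plxna2 in iCON lay between -0.13 and 1.57, with the same direction in 11 of 13.

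The reverse pattern, lower in Lypd1-high cells past 0.5 in both libraries, was found in 3 genes (2.4% of all genes): Nrp2, Sema6a and Efna5. The neuropilins thus went in opposite directions: Nrp2 stood at 14.9 (12.5 to 17.7) in Lypd1-high and 24.998 (22.2 to 27.999) in Lypd1-low cells of iCON, and at 21.6 (17.4 to 26.5) and 36.1 (32.2 to 40.3) in iCKO. Sema6a, a transmembrane ligand of A-type plexins, had log2 ratios of -0.69 (-0.98 to -0.45) and -0.53 (-0.83 to -0.26). Efna5, a GPI-anchored ephrin, stood at 4.19 against 24.998 in iCON and 3.79 against 12.2 in iCKO. In the Calb2 classes it stood at 5.26 in Calb2-high and 5.22 in Calb2-intermediate cells of iCON and at 5.77 and 5.89 in iCKO. Without the type II-like cells described below, its log2 ratio moved from -2.33 to -0.45 in iCON and from -1.46 to -0.72 in iCKO. The ratio of Dcc without those cells was 2.16 and 1.76. Slit2, the Robo ligand, was below the filter and was singled out after its values were seen: it had 68 UMIs (7.69 CPM) in Lypd1-high and 12 (1.003) in Lypd1-low cells of iCON, a level ratio of 7.67 (4.12 to 15.6) without the added 1. In iCKO it had 26 UMIs (6.16 CPM) against 3 (0.339), a ratio of 18.2 (5.56 to 93.7). The log2 ratio of Slit2 was 2.12 in iCON and 2.42 in iCKO. Under other settings it ran from 0.29 to 2.71 in iCON and from 1.06 to 3.56 in iCKO.

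The most abundant genes varied less between the classes. Sema3e in iCON stood at 151 in Lypd1-high, 208 in Lypd1-low, 183 in Calb2-high and 229 in Calb2-intermediate cells. In iCKO it stood at 162 in Lypd1-high, 214 in Lypd1-low, 207 in Calb2-high and 196 in Calb2-intermediate cells. Sema3e was thus lower in Lypd1-high than in Lypd1-low cells in both libraries, by log2 -0.46 (-0.56 to -0.36) and -0.41 (-0.54 to -0.28). Epha4 in iCON stood at 112 in Lypd1-high, 142 in Lypd1-low, 164 in Calb2-high and 134 in Calb2-intermediate cells, and in iCKO at 131 in Lypd1-high, 165 in Lypd1-low, 165 in Calb2-high and 151 in Calb2-intermediate cells. Sema7a in iCON stood at 119 in Lypd1-high, 142 in Lypd1-low, 162 in Calb2-high and 132 in Calb2-intermediate cells, and in iCKO at 126 in Lypd1-high, 155 in Lypd1-low, 163 in Calb2-high and 122 in Calb2-intermediate cells. Among the 4 classes, Epha4 was lowest in Lypd1-high cells of both libraries, and Sema7a in Lypd1-high cells of iCON and Calb2-intermediate cells of iCKO. Efnb2 in iCON stood at 41.8 in Lypd1-high, 59.2 in Lypd1-low, 56.1 in Calb2-high and 62.03 in Calb2-intermediate cells, and in iCKO at 42.6 in Lypd1-high, 66.8 in Lypd1-low, 63.5 in Calb2-high and 52.1 in Calb2-intermediate cells; its log2 ratio between the Lypd1 classes was -0.49 (-0.69 to -0.32) and -0.64 (-0.90 to -0.41). Unc5d in iCON stood at 63.03 in Lypd1-high, 80.9 in Lypd1-low, 78.2 in Calb2-high and 77.6 in Calb2-intermediate cells, and in iCKO at 65.6 in Lypd1-high, 88.7 in Lypd1-low, 86.4 in Calb2-high and 77.8 in Calb2-intermediate cells. Among the 4 classes, Lypd1-high cells held the lowest Efnb2 and Unc5d in each library. Plxna4 was higher in Lypd1-high than in Lypd1-low cells: in iCON it stood at 94.7 in Lypd1-high, 76.6 in Lypd1-low, 85.5 in Calb2-high and 80.5 in Calb2-intermediate cells, and in iCKO at 121 in Lypd1-high, 95.7 in Lypd1-low, 101 in Calb2-high and 109 in Calb2-intermediate cells. Its log2 ratio between the Lypd1 classes was 0.30 (0.17 to 0.44) and 0.34 (0.18 to 0.50). Plxna1 in iCON stood at 49.9 in Lypd1-high, 48.7 in Lypd1-low, 51.7 in Calb2-high and 52.4 in Calb2-intermediate cells, and in iCKO at 69.4 in Lypd1-high, 61.2 in Lypd1-low, 60.8 in Calb2-high and 73.9 in Calb2-intermediate cells. Epha5 in iCON stood at 103 in Lypd1-high, 104 in Lypd1-low, 88.96 in Calb2-high and 104 in Calb2-intermediate cells, and in iCKO at 96.4 in Lypd1-high, 101 in Lypd1-low, 99.5 in Calb2-high and 95.5 in Calb2-intermediate cells. Neither had a Lypd1 ratio whose interval excluded 0 in either library.

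**Figure D2:**
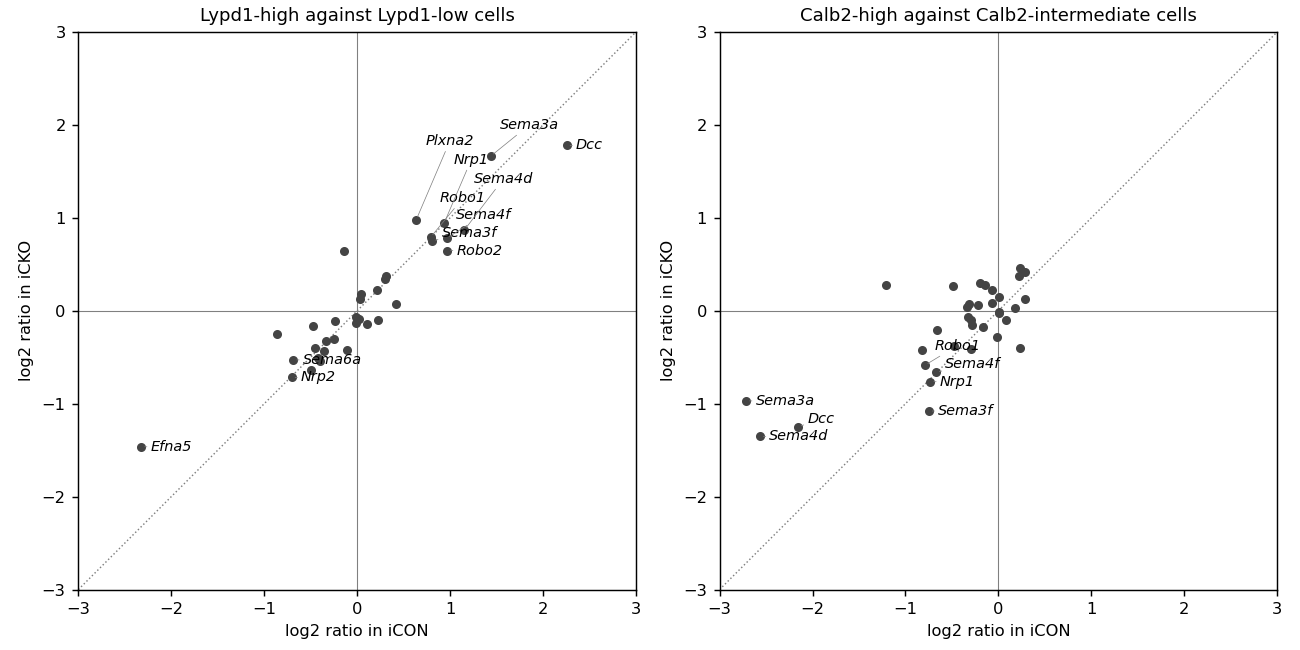
Each point is 1 of the 35 genes at or above 5 CPM; the axes are the log2 ratio of levels in iCON (x) and iCKO (y), at left Lypd1-high against Lypd1-low cells, at right Calb2-high against Calb2-intermediate cells, and the dotted line marks equal ratios. Genes past 0.5 in size in both libraries are named: Dcc and Sema3a lie at the upper right of the left panel and at the lower left of the right panel, and Efna5 lies at the lower left of the left panel.

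Because the floxed gene encodes a transcription factor that binds the core TGTGGT, the promoters of the guidance genes were searched for these letters. The table of RefSeq starts used (GRCm38.p6) matched 57 of the 66 genes with 72 starts. The 250 bases before the start held TGTGGT, on either strand (ACCACA on the printed strand where the match is on the other), at 9 of the 72 starts, or 12.5%, beside 14.0% of all 32851 starts of the same window. The 9 starts belong to Unc50, Sema6d, Efna4, Unc5c, Sema3a, Ephb1, Sema4d, Plxnb3 and Plxna3. A match is a description of letters and no binding site, and its absence says only that the letters are not in that window. Sema3a and Sema4d are shown because their Calb2-high levels differed by log2 1 or more between the libraries (below). Those of Dcc did too, but Dcc was not among the 57 genes with a start and was not searched. The match lies before the 1 start listed for Sema3a and before 1 of the 3 listed for Sema4d. The sequences run 5′ to 3′ on the gene's strand, with the match in capitals. The Sema3a gene spans chr5:13125414-13602565, plus strand, and the window chr5:13396534-13396783 on the plus strand lies before 1 RefSeq start, with the match at bases -10 to -5 from that start. The Sema4d gene spans chr13:51685529-51793747, minus strand, and the window chr13:51748811-51749060 on the minus strand has its match at bases -130 to -125.
Sema3a: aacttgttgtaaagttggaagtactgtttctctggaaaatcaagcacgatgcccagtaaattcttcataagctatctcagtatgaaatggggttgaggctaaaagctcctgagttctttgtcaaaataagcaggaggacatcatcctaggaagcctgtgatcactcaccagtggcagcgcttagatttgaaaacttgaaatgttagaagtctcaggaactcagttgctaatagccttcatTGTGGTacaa
Sema4d: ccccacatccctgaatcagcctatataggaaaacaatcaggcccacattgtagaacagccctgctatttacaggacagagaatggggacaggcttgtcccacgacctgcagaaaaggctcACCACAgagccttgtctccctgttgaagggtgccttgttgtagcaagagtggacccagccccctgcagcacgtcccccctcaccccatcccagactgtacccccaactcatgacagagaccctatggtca

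Between the Calb2 classes, Sema4d and Dcc were lower by log2 1 in Calb2-high cells of both libraries, and none of the 35 was higher in both libraries at log2 1 (0.349% of all genes) or 0.5 (1.08%). Sema4d in iCON stood at 0.438 (0.0531 to 1.58) in Calb2-high (2 UMIs) and 7.52 (5.88 to 9.47) in Calb2-intermediate cells, and in iCKO at 2.64 (1.63 to 4.03) and 8.29 (5.86 to 11.4). Its level ratio of Calb2-intermediate to Calb2-high cells was 17.2 (4.58 to 144) in iCON and 3.14 (1.80 to 5.64) in iCKO, without the added 1. Dcc in iCON stood at 1.10 (0.356 to 2.56) against 8.35 (6.62 to 10.4), and in iCKO at 4.64 (3.27 to 6.40) against 12.4 (9.41 to 16.1), log2 -2.16 and -1.25. In both libraries the intervals of Sema4d and Dcc did not overlap between the Calb2 classes. Sema3a in iCON stood at 1.31 (0.482 to 2.86) against 14.2 (11.9 to 16.8), and in iCKO at 4.52 (3.17 to 6.26) against 9.81 (7.16 to 13.1), log2 -2.72 and -0.97. The smaller ratios of iCKO came with higher levels of all 3 genes in its Calb2-high cells. For Sema3a the level in Calb2-intermediate cells was also lower in iCKO, at 9.81 against 14.2 in iCON. For Dcc and Sema4d it was higher in iCKO.

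At log2 1, 4 of the 35 were lower in Calb2-high cells of iCON (all genes: 1.6%), namely Sema3a, Sema4d, Dcc and Unc5c, and 3 in iCKO (0.994%), namely Sema4d, Dcc and Sema3f. None was higher in either library (0.666% and 0.441% of all genes). Sema4d and Dcc were lower in both (0.677% of all genes). With a pseudocount of 5 in place of 1 their log2 ratios were -1.20 and -1.13 in iCON and -0.80 and -0.85 in iCKO, so that the calls in iCKO ended, and 0 of the 35 reached log2 1 there. At 0.5, 7 were lower in both libraries (2.66% of all genes): Sema4d, Dcc, Sema3a, Sema3f, Sema4f, Nrp1 and Robo1. In single libraries at 0.5, 0 (2.88%) were higher and 10 (6.25%) lower in iCON, and 0 (2.35%) and 7 (5.09%) in iCKO. All 7 are among the 9 that were higher in Lypd1-high cells, but the classes share cells, so this overlap is no independent result. Nrp1 stood at 16.4 against 27.99 in iCON and 17.8 against 30.96 in iCKO, and Sema3f at 10.5 against 18.4 and 11.5 against 25.5. Sema7a went the other way, by log2 0.29 (0.16 to 0.42) and 0.41 (0.27 to 0.56), as did Nrp2, by 0.23 (-0.08 to 0.56) and 0.46 (0.16 to 0.79), though the interval of Nrp2 in iCON included 0. The median of the 35 was -0.29 in iCON and -0.06 in iCKO, beside -0.05 and -0.04 over all genes. The difference of the Calb2 ratios between the libraries reached 1 in 3 of the 35 (1.1% of all genes): it was 1.75 for Sema3a, 1.49 for Unc5c and 1.21 for Sema4d, with the iCKO ratio the higher in each; 0 reached 1 with a pseudocount of 5 or among genes of at least 20 CPM. For the Lypd1 ratios it reached 1 in 0 of the 35 (0.923% of all genes), with no test of either difference.

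With 1 marker held within bounds, Dcc and Unc5c were past log2 1 between the Lypd1 classes in both libraries, and Sema4d between the Calb2 classes; Unc5c had not reached log2 1 between the Lypd1 classes as a whole (-0.40 in iCON and -0.54 in iCKO). These splits were added after values had been seen. The bounds did not make Calb2 equal. Among Calb2-intermediate cells median Calb2 was 1776 CPM in Lypd1-high and 4582 in Lypd1-low cells of iCON, and 4739 and 6112 in iCKO. The share with little myelin-gene RNA was 33.3% and 19.4% in iCON, and 24.4% and 42.3% in iCKO. The part of either in the Lypd1 ratios below was not tested. Among Calb2-intermediate cells (39 Lypd1-high and 139 Lypd1-low in iCON, 82 and 52 in iCKO), Dcc still differed between the Lypd1 classes, at 16.9 against 4.79 in iCON and 15.5 against 5.75 in iCKO, log2 1.63 (1.06 to 2.58) and 1.29 (0.37 to 2.65). Unc5c, another netrin receptor, went the other way there, at 4.23 against 10.5 and 2.52 against 8.95, log2 -1.14 (-2.58 to -0.25) and -1.50 (-3.38 to -0.42). Dcc was the 1 gene of the 35 past log2 1 upward in both libraries (0.308% of all genes) and Unc5c the 1 gene downward (0.277%). In iCON taken alone 2 (0.636%) were higher and 3 (1.19%) lower, and in iCKO 3 (1.16%) and 3 (1.09%). At 0.5 the counts were 6 (4.42%) higher and 12 (6.98%) lower in iCON, and 7 (7.37%) and 6 (6.83%) in iCKO. At 0.5 in both libraries, 5 were higher (1.46%; Dcc, Sema3a, Nrp1, Plxna2 and Sema4f) and 5 lower (1.72%; Unc5c, Nrp2, Efna5, Slit3 and Sema3e). Plxna2 (log2 0.89 and 1.34), Nrp1 (0.66 and 0.56) and Nrp2 (-0.81 and -0.85) kept their direction, each with an interval that excluded 0 in both libraries. For Sema4d no difference between the Lypd1 classes was resolved within these cells. It stood at 7.93 against 7.42 in iCON and 9.01 against 8.31 in iCKO, log2 0.08 (-0.85 to 0.96) and 0.10 (-0.90 to 1.21). Both intervals included 0, and that of iCKO also held its ratio of 0.87 between the Lypd1 classes as a whole. Sema3f also had intervals that included 0, with log2 ratios of -0.01 (-0.60 to 0.54) and -0.25 (-0.84 to 0.32). Robo1 was past 0.5 upward in iCKO alone, and Robo2 in iCON alone.

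Within Lypd1-low cells (85 Calb2-high and 139 Calb2-intermediate in iCON, 201 and 52 in iCKO), the Calb2 classes were compared in the same way. Sema4d stood at 0.447 in Calb2-high and 7.42 in Calb2-intermediate cells of iCON and at 2.69 and 8.31 in iCKO, and was the 1 gene of the 35 lower by log2 1 in both libraries (0.584% of all genes); 4 were lower by 0.5 (2.75%; Sema4d, Dcc, Sema3a and Sema3f), and 0 were higher by 1 (0.287%) or 0.5 (1.18%). In single libraries at log2 1, 4 (1.46%) were lower in iCON (Sema4d, Dcc, Unc5c and Sema3a) and 2 (1%) in iCKO (Sema4d and Sema3f), and 0 (0.677%) and 0 (0.81%) were higher. Sema3f stood at 10.5 against 18.7 and 11.8 against 28.1, log2 -0.77 (-1.35 to -0.33) and -1.19 (-1.80 to -0.70). Sema3a was lower in iCON Calb2-high cells, at 0.671 against 11.4, and in iCKO, at 2.98 against 6.39, its interval included equal levels at log2 -0.89 (-2.25 to 0.15). Dcc had log2 ratios of -1.45 (-3.82 to -0.72) and -0.57 (-1.85 to 0.59), the second with an interval that included 0. The log2 ratios of Nrp2 were 0.13 (-0.21 to 0.48) and -0.03 (-0.45 to 0.40).

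The classes did not hold the same clusters in the 2 libraries, where clusters were built without the guidance genes and are named by number. Cluster 0 held 137 of the 180 Lypd1-high cells of iCON and 19 of the 126 of iCKO, in which cluster 1 held 41, cluster 6 held 35 and cluster 4 held 31. Of Lypd1-low cells, cluster 2 held 106 of 256 in iCON and 10 of 261 in iCKO, and cluster 4 held 0 and 66. Of Calb2-intermediate cells, cluster 2 held 126 of 204 in iCON and 11 of 142 in iCKO, and of Calb2-high cells, clusters 3 and 5 held 81 of 86 and 139 of 227. Differences between the libraries within a class therefore go with a different make-up of that class, and the part of this in them was not tested. Calb2-high cells were also compared within clusters 3 and 5 alone (below).

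Between the libraries, over all cells, none of the 35 genes differed by log2 1, higher (0.359% of all genes) or lower (0.564%). At 0.5, 5 were higher in iCKO (2.25% of all genes): Sema4g, Plxna2, Sema3d, Sema6a and Nrp2. Lower at 0.5 were 3 (4.77%): Efna5, Sema3a and Unc50. Without the type II-like cells described below, the log2 ratio of Efna5 was 0.12 in place of -0.70, so that its call and its direction rest on those cells. Sema4g, a transmembrane semaphorin, stood at 10.5 (9.23 to 11.99) in iCON and 18.9 (16.7 to 21.4) in iCKO, Plxna2 at 9.31 (8.08 to 10.7) and 15.7 (13.7 to 17.96), and Sema3d at 19.4 (17.6 to 21.4) and 31.4 (28.5 to 34.5). For these 3 the intervals of the libraries did not overlap. Nrp2 had log2 ratios of iCKO to iCON of 0.50 (0.13 to 0.93) in Lypd1-high, 0.51 (0.30 to 0.76) in Lypd1-low, 0.35 (0.05 to 0.67) in Calb2-high and 0.13 (-0.20 to 0.46) in Calb2-intermediate cells. Sema6a had log2 ratios of iCKO to iCON of 0.69 (0.38 to 1.04) in Lypd1-high, 0.53 (0.34 to 0.74) in Lypd1-low, 0.46 (0.20 to 0.75) in Calb2-high and 0.31 (0.04 to 0.60) in Calb2-intermediate cells. The ratios were above 0 in each class, and for Nrp2 in Calb2-intermediate cells the interval included 0. Under other settings the ratio of Nrp2 was below 0 in 1 of 14 in Lypd1-high, 1 of 15 in Calb2-high and 2 of 14 in Calb2-intermediate cells, and that of Sema6a in 0 in each class. Unc50, a gene of intracellular trafficking, stood at 51.2 (48.3 to 54.3) and 32.7 (29.7 to 35.8). By class, Unc50 in iCON stood at 51.03 in Lypd1-high, 50.2 in Lypd1-low, 49.1 in Calb2-high and 51.4 in Calb2-intermediate cells, and in iCKO at 31.7 in Lypd1-high, 33.7 in Lypd1-low, 33.3 in Calb2-high and 31.4 in Calb2-intermediate cells. Within a library Unc50 was thus nearly level across the classes, and it was lower in iCKO in each of them.

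Within classes, the gap of Sema3d was larger in Lypd1-high cells, at 12.4 in iCON and 27.7 in iCKO, log2 1.09 (0.77 to 1.54), than in Calb2-intermediate cells, at 26.9 and 29.2, log2 0.11 (-0.20 to 0.42). It was the 1 gene of the 35 higher by log2 1 in Lypd1-high cells (0.759% of all genes). Split by Calb2, Sema3d did not reach log2 1: its ratio was 0.46 (-0.38 to 1.28) in Lypd1-high cells with Calb2 under 1000 CPM (140 iCON and 30 iCKO cells, 81 and 16 UMIs) and 0.86 (0.25 to 1.60) in those with intermediate Calb2 (39 and 82 cells). In all Lypd1-high cells with a pseudocount of 5 it was 0.91. Past log2 1 upward in the first was 1 (0.882%), Unc5c at 1.01 (0.14 to 2.003), and 1 (2.48%) downward, Sema4c at -1.05 (-2.29 to -0.16). Upward in the second was 1 (1.5%), Plxna2 at 1.12 (0.45 to 1.99), and 0 (0.923%) downward; Unc5c there was -0.57 (-2.44 to 0.91) and Sema4c 0.63 (-0.10 to 1.51), both with the opposite sign. Among the 4 classes the gap of Plxna2 was the largest in Calb2-intermediate cells, at 6.58 (5.06 to 8.42) and 17.7 (14.03 to 21.95), log2 1.30 (0.93 to 1.92), where it too was the 1 gene past 1 (0.636%). These cells were 39 Lypd1-high and 139 Lypd1-low in iCON but 82 and 52 in iCKO, and Plxna2 was the higher in Lypd1-high cells. In the Lypd1-low cells among them its ratio was 0.67 (-0.24 to 1.70), from 34 and 14 UMIs, with 0 (0.636%) of the 35 past log2 1 upward and 1 (1.17%) downward, Sema6d at -1.13 (-2.35 to -0.30). Thinned to 20000 UMIs the ratio of Plxna2 in all Calb2-intermediate cells was 0.64, and with a pseudocount of 5 it was 0.97, both short of 1. In Lypd1-high cells Plxna2 stood at 12.1 and 23.7, in Lypd1-low at 7.44 and 11.5, and in Calb2-high at 7.89 and 13.2. Plxna2 was therefore higher in iCKO in each class, also under the other settings (13 or 14 in each class). Sema4g was higher too, at 9.84 and 15.4 in Lypd1-high, 10.7 and 20.9 in Lypd1-low, 10.5 and 21.3 in Calb2-high and 12.2 and 17.2 in Calb2-intermediate cells, but in Lypd1-high cells its log2 ratio of 0.60 turned to -0.48 in cells with little myelin-gene RNA and -0.34 in cells with Y-linked RNA. In Lypd1-low cells 0 of the 35 were higher by log2 1 (0.205% of all genes) and 0 lower (0.769%). In Lypd1-high cells 5 (3.81%) were higher in iCKO by log2 0.5 and 2 (6.28%) lower. In Lypd1-low cells 4 (2.34%) were higher in iCKO by log2 0.5 and 4 (5.28%) lower. In Calb2-high cells 9 (4.18%) were higher in iCKO by log2 0.5 and 2 (3.89%) lower. In Calb2-intermediate cells 3 (3.87%) were higher in iCKO by log2 0.5 and 2 (4.61%) lower. Downward by log2 1, the counts were 0 (0.482%) in Lypd1-high and 0 (0.39%) in Calb2-intermediate cells. Plxna1 was 0.47 and Plxna4 0.35 higher on the log2 scale in Lypd1-high cells of iCKO, and over all cells Plxna1 was 0.39 (0.27 to 0.53) and Plxna4 0.31 (0.21 to 0.41). Lypd1-high cells also differed between the libraries in the share with Xist (53.9% and 81.7%) and in the share with little myelin-gene RNA (17.2% and 33.3%), and the part of these in the differences was not tested; over all cells, in cells with Xist alone Sema3d, Plxna2 and Sema4g had log2 ratios of 0.70, 0.69 and 1.10, and in cells with Y-linked RNA alone 0.57, 0.44 and 0.48.

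Calb2-high cells held the most guidance genes past log2 1 between the libraries. Sema3a was at 6 UMIs in the 86 iCON cells and 36 in the 227 iCKO cells, 1.31 (0.482 to 2.86) against 4.52 (3.17 to 6.26) CPM. Dcc was at 5 and 37 UMIs, 1.10 (0.356 to 2.56) against 4.64 (3.27 to 6.40), and Sema4d at 2 and 21 UMIs, 0.438 (0.0531 to 1.58) against 2.64 (1.63 to 4.03). These were the 3 of the 35 past log2 1 upward in this class (0.656% of all genes), with log2 ratios of 1.25, 1.43 and 1.34; 0 were past it downward (0.267%). The level ratios without the added 1 were 3.44 (1.43 to 9.98) for Sema3a, 4.24 (1.66 to 13.8) for Dcc and 6.02 (1.47 to 52.9) for Sema4d. In the same cells Runx1 RNA stood at 16.4 (12.9 to 20.6) in iCON and 97.5 (90.8 to 105) in iCKO. The class also differed in other markers: the summed level of Calb1, Lrrc52 and Ttn was 22.1 in iCON and 153 in iCKO. That of Lypd1, Pou4f1, Grm8 and Ntng1 was 66.8 and 268. The sum of Calb2, Rxrg and Pcdh20 was 21371 and 20744, but the bound on Calb2 sets this class. Median Calb2 per cell was 20952 and 20340, and median Rxrg 61.7 and 35.4. None of the 10 markers was at 0. Restricted to clusters 3 and 5, the 2 with at least 10% of the Calb2-high cells of iCON (81 and 139 cells, a choice made after values had been seen), the log2 ratio of Sema3a was 1.89 (1.25 to 9.31), from 1 and 17 UMIs. That of Sema4d was 1.26 (0.26 to 5.63), from 2 and 12 UMIs, and that of Dcc 0.78 (-0.36 to 3.06), from 5 and 13 UMIs. There 3 (0.472%) were past log2 1 upward, Sema3a, Sema4d and Sema3d, and 0 (0.513%) downward, so that the call of Dcc was not kept. Restricted to Calb2-high cells with Lypd1 below 100 (85 and 201 cells), the log2 ratios were 1.25, 1.10 and 1.35, and the same 3 were past log2 1 upward (0.574% of all genes) and 0 (0.246%) downward. In cells with myelin-gene RNA of at least 500 CPM they were 0.89, 1.62 and 1.88. With a pseudocount of 5 none of the 3 reached log2 1. All 3 were higher in iCKO under each of 14 settings, at log2 ratios from 0.49 to 2.46. The same genes were not higher in iCKO over all cells: Sema3a was -0.68 (-1.10 to -0.42), Dcc -0.27 (-0.65 to 0.04) and Sema4d -0.38 (-0.87 to -0.02). In Lypd1-high cells, where the 3 genes were high, Sema3a was -0.51 (-1.01 to -0.10), Dcc -0.20 (-0.65 to 0.21) and Sema4d -0.35 (-0.998 to 0.19).

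**Figure D3:**
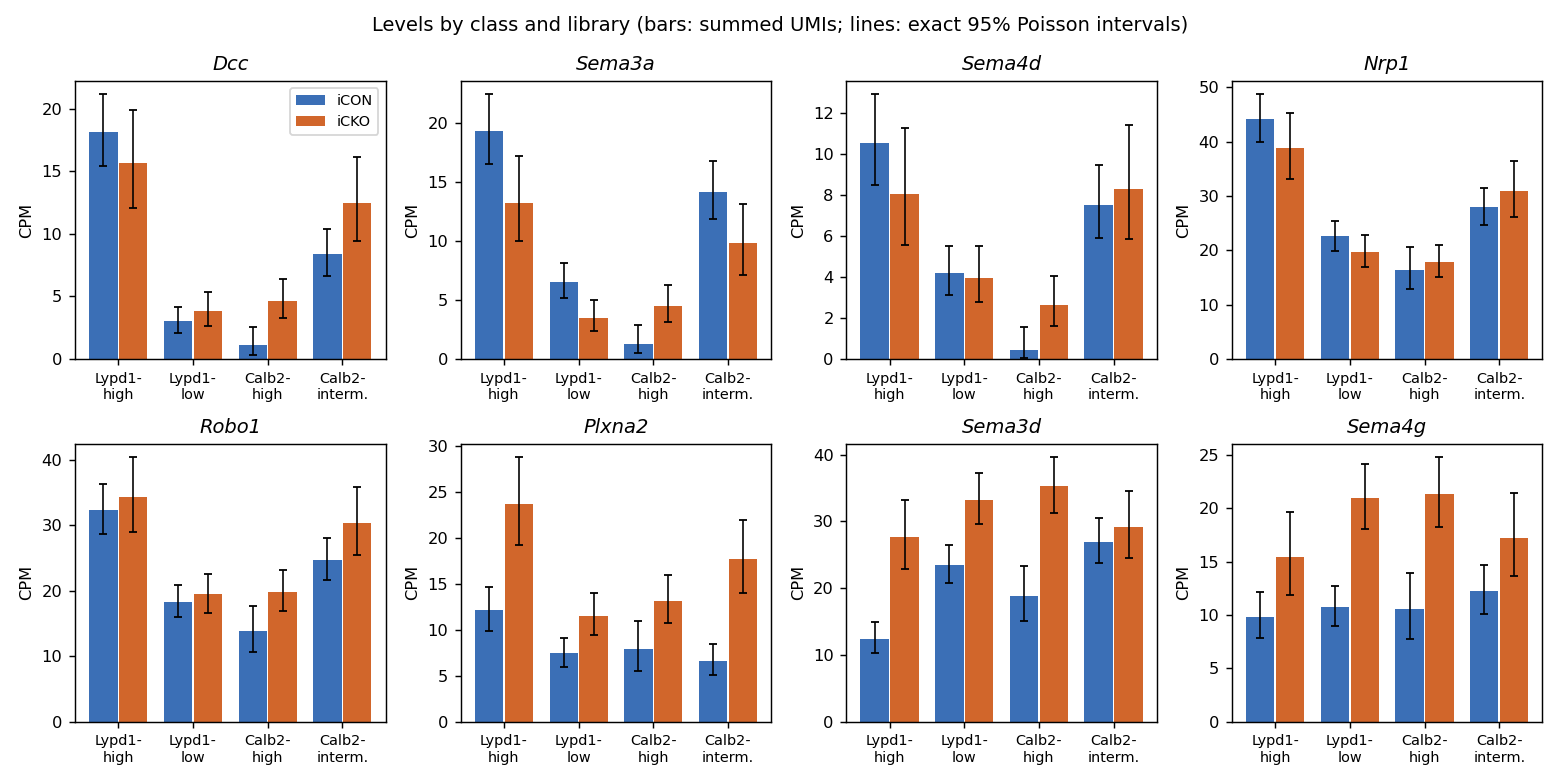
Levels of 8 guidance genes (CPM, y axis) in the 4 classes, blue for iCON and orange for iCKO; bars are sums over 1 library's cells and lines exact 95% Poisson intervals. Dcc, Sema3a and Sema4d are close to 0 in Calb2-high iCON cells and higher in Calb2-high iCKO cells, while Plxna2 and Sema4g are higher in iCKO in each class.

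Partners and effectors that act with these receptors were given by a list of 50 genes, of which 40 reached the filter. Between the Lypd1 classes, 0 of the 40 were higher by log2 1 (1.01% of all genes) and 2 lower (1.62%) in iCON, Rgs3 and Tiam1. In iCKO 0 were higher (1.09%) and 1 (Rgs3) lower (1.03%), with medians of -0.04 and -0.05. Rgs3, a regulator of G protein signalling that ephrin-B reverse signalling can use, stood at 8.71 against 23.4 in iCON and 13.3 against 28.04 in iCKO. Pak1, a kinase activated by the small GTPases Rac and Cdc42, stood at 305 against 179.9 and 250.3 against 149.6. It was lower in Calb2-high than Calb2-intermediate cells, at 132 against 248 and 131 against 245. Between the Calb2 classes 1 of the 40 was higher by log2 1 (0.666% of all genes) and 0 lower (1.6%) in iCON, and 0 higher (0.441%) and 0 lower (0.994%) in iCKO, with medians of 0.02 and -0.02. The 1 gene was Tiam1, a Rac activator, at 35.3 against 12.8. Between the libraries 0 of the 40 were higher by log2 1 (0.359% of all genes) or lower (0.564%) over all cells, with a median of 0.10; Tiam1 came closest, at 16.8 in iCON and 34.4 in iCKO, log2 0.99 (0.83 to 1.23). In Lypd1-high cells 1 of the 40 was higher in iCKO by log2 1 (0.759% of all genes), Tiam1 at 1.30 (0.97 to 1.79). In Calb2-high cells 1 was (0.656%), Dpysl5, a protein of the growth cone cytoskeleton, at 2.63 in iCON and 8.54 in iCKO, log2 1.39 (0.80 to 2.72). In Lypd1-low and Calb2-intermediate cells 0 of the 40 were higher (0.205% and 0.636% of all genes), and 0 were lower in any of the 4 classes (0.482%, 0.769%, 0.267% and 0.39%).

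A further group of cells stood apart in guidance genes. 1 cluster, built without the guidance genes, held 30 iCON and 7 iCKO cells and is called type II-like. Of the type II markers Prph, Gata3, Th, Plk5, Smad3 and Etv4, 4 had a UMI in at least 10% of its cells, against 1 or 2 in each other cluster. Plk5 and Th stood among its 10 leading genes, which began with Myl1, Dupd1 and the heat shock gene Hspb1. Runx1 was at 0 UMIs in these cells in both libraries, with upper limits of the interval at 3.95 CPM in iCON and 24.8 in iCKO. The 30 iCON cells had Xist and no Y-linked RNA, and the 7 iCKO cells had Y-linked RNA and no Xist. The cells were clustered on these data, so the values are a description. Efna5 stood at 248 (217 to 282) in iCON and 323 (238 to 428) in iCKO type II-like cells, against 5.12 (4.20 to 6.19) and 5.66 (4.47 to 7.08) in the other cells. It was detected in each of the 30 and each of the 7 cells. The netrin receptor Unc5b stood at 43.9 (31.5 to 59.5) and 53.8 (23.2 to 106) against 0.996 (0.617 to 1.52) and 0.588 (0.254 to 1.16). Plxnc1, the plexin that binds Sema7a, stood at 42.8 (30.6 to 58.3) and 33.6 (10.9 to 78.5) against 0.569 (0.294 to 0.995) and 1.03 (0.563 to 1.73). In all 3 genes the type II-like interval lay above that of the other cells in both libraries. Unc5b and Plxnc1 were below the filter over all cells. Epha8 (26.8 and 20.2 against 2.09 and 2.80), Ephb1 (13.9 and 26.9 against 1.99 and 3.75) and Epha6, with 5 and 4 UMIs in type II-like and 2 and 0 in all other cells, were likewise higher in type II-like cells.

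Among genes above the filter, 4 were higher by log2 1 in type II-like cells of both libraries (6.96% of all genes): Efna5, Neo1, Unc5c and Robo2. Robo2 rests on 3 UMIs in iCKO, at 20.2 (4.16 to 58.98) against 9.12, and its interval there included equal levels. Neo1, a Dcc relative, stood at 69.6 and 74.000 against 26.5 and 22.8. Lower by log2 1 in both were 16 (12.5% of all genes), among them the abundant Sema3e, Epha4, Plxna4, Plxna1 and Efnb2. Sema3e stood at 23.5 (14.8 to 35.6) and 20.2 (4.16 to 58.98) against 192 (186 to 198) and 199.6 (192 to 207). Epha4 stood at 18.2 (10.6 to 29.1) in iCON type II-like cells and at 0 UMIs in iCKO, against 134 and 156 in the other cells. Dcc, Sema3d, Sema4g and Slit3 were at 0 UMIs in type II-like cells of both libraries, with upper limits of 3.95 CPM in iCON and 24.8 in iCKO. Sema3a, Sema3f and Unc5a were at 0 UMIs in iCKO as well. For these genes other than Sema3d the limit in iCKO is above the level of the other cells, so a difference was not detectable there although they count among the 16. For Robo1, Sema5a, Sema6c and Efnb2 the interval of the iCKO ratio included 0 too, so that Nrp2, Epha4, Sema3d, Sema3e, Plxna4 and Plxna1 were the 6 whose interval excluded 0 in both libraries. Epha5 and Unc5d were closer, at 157 and 148 against 101 and 98.3, and 52.4 and 60.5 against 73.1 and 81.4. Nrp1 stood at 43.9 and 114, but 15 of the 17 UMIs in iCKO came from 1 cell. The type II-like cells were shallower (median 31229 and 20915 UMIs), and the part of depth in these values was not tested.

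**Figure D4:**
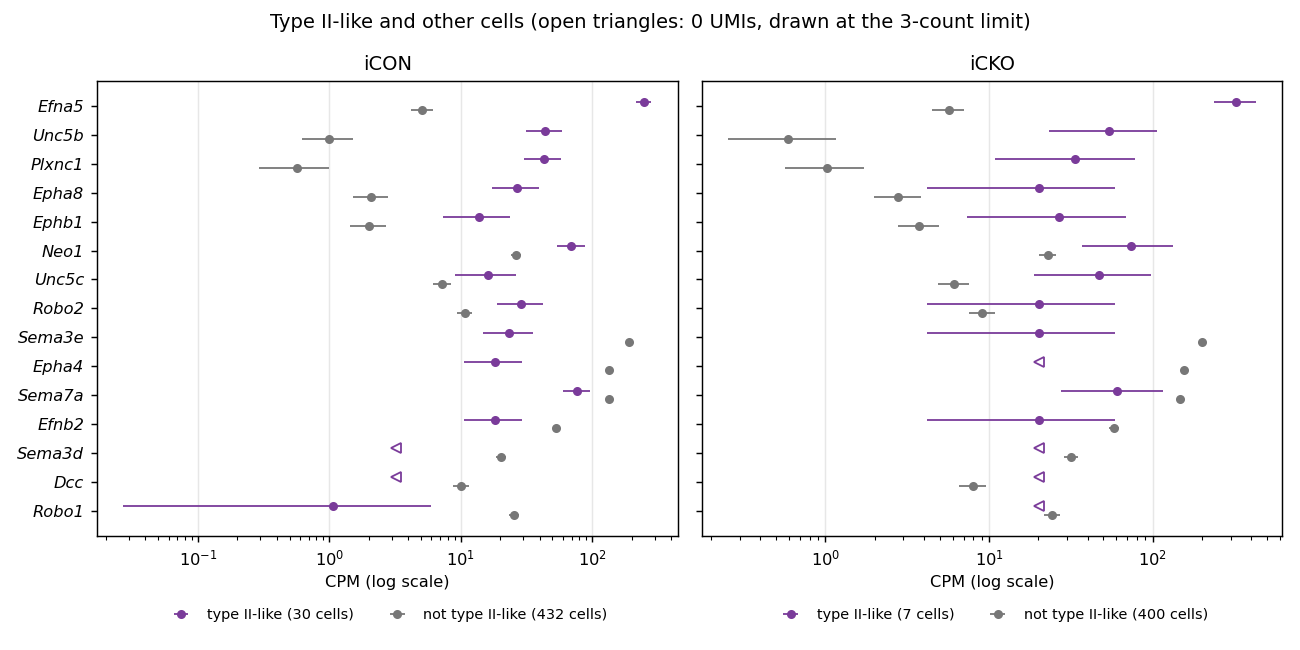
Levels of 15 guidance genes (x axis, CPM on a log scale) in type II-like cells (purple) and all other cells (grey), iCON at left and iCKO at right; lines are exact 95% Poisson intervals, and open triangles mark 0 UMIs, drawn at the level that 3 counts would give. Efna5, Unc5b and Plxnc1 lie to the right in type II-like cells of both libraries, and Sema3e and Epha4 to the left.

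Some guidance genes moved with myelin-gene RNA across cells. Type II-like cells left out, cells with less than 500 CPM of myelin-gene RNA were set against the rest of each library. Sema5a had 7 UMIs (1.55 CPM) in low-myelin and 56.97 CPM in high-myelin cells of iCON, and 1 UMI (0.202) and 65.8 in iCKO. The ratio of high to low, without the added 1, was 36.7 (17.7 to 91.5) in iCON. The secreted Sema3b stood at 5.32 against 49.6 in iCON and 5.24 against 54.6 in iCKO, ratios of 9.32 (6.22 to 14.6) and 10.4 (7.02 to 16.1). Sema6d stood at 0.887 against 15.6 and 0.202 against 15.4, and Ephb6 at 0.444 against 8.45 and 0.403 against 9.38. Sema4c stood at 4.66 against 19.8 and 4.64 against 20.7, and what remained of Efna5 at 1.996 against 5.98 and 2.42 against 7.53. These 6 were lower by log2 1 in low-myelin cells of both libraries (3.82% of all genes), and 0 were higher (0%); Sema6c had log2 ratios of -0.85 and -1.21. Whether this RNA came from the sorted neurons or from glia carried with them was not tested. Dcc, Sema3a and Sema4d had log2 ratios of 0.12 (-0.36 to 0.60), 0.17 (-0.25 to 0.59) and -0.29 (-0.99 to 0.28) in iCON, and of -0.45 (-1.16 to 0.11), 0.63 (0.12 to 1.30) and 0.21 (-0.50 to 0.98) in iCKO; apart from Sema3a in iCKO, which was higher in low-myelin cells, these intervals included 0. Sema3e and Epha5 were higher in low-myelin cells, at 244 against 178 and 237 against 178 for Sema3e and 122 against 95.4 and 122 against 84.8 for Epha5.

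**Figure D5:**
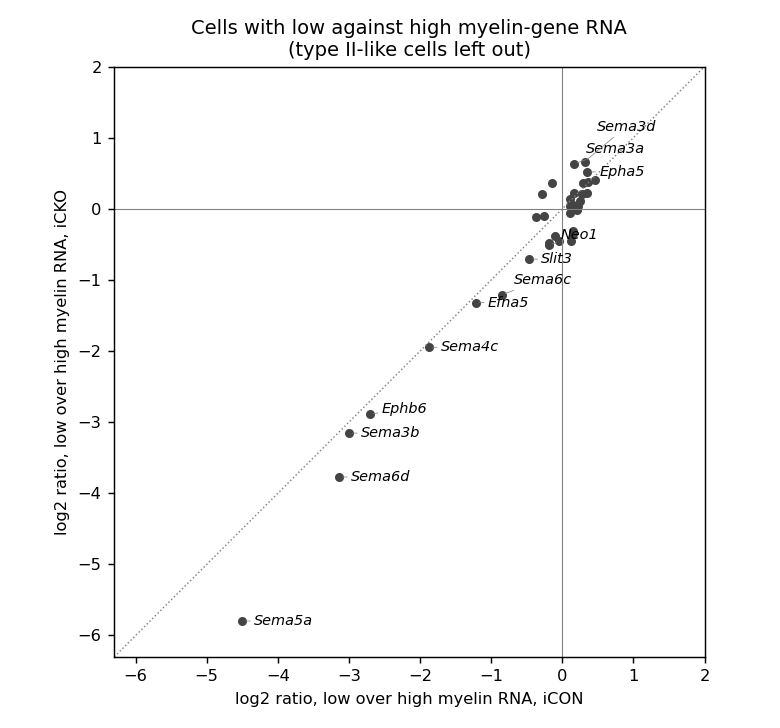
Each point is 1 of the 35 genes; the axes are the log2 ratio of levels in cells with less than 500 CPM of myelin-gene RNA over the other cells, in iCON (x) and iCKO (y), type II-like cells left out. Sema5a, Sema3b, Sema6d, Ephb6, Sema4c and Efna5 lie below -1 in both libraries, and the other genes lie nearer to 0.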

How the data were processed

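Single tdTomato-positive cells were sequenced by the authors with the 10x 3′ v3 chemistry, per the labels' protocols, and the submitters' processing notes name Cell Ranger, Seurat and the mm10 build. Deposited values are on the natural log scale, ln(1 + CPM), where CPM is UMIs per 1000000 UMIs of a cell, for 14425 genes in 869 cells, as read from the values themselves; other steps are not given in the sources used here. From these, whole UMI counts were recovered for 100% of values within 1e-06, and summed over the cells of a class and library. A gene's level is this sum scaled to CPM, with an exact 95% Poisson interval. Ratios used a pseudocount of 1 CPM, and genes under 5 CPM over all cells were left out of counts. With 1 library per genotype no test was run. Cells are not replicates, and UMIs of 1 cell are not independent draws, so intervals cover counting error only. Shares of cells were taken after thinning to 20000 UMIs, and depth per cell limits low genes. Doublets were not removed; Scrublet marked 1 iCON and 4 iCKO cells, and leaving them out was an alternative. Cells were clustered, without the guidance genes, to name the type II-like cells and to describe and restrict the classes (scanpy 1.11.5, leidenalg 0.10.2, 2000 variable genes, 20 principal components, 15 neighbours, resolution 0.5). Other computing used Python 3.11.15, numpy 2.4.6, pandas 2.3.3 and scipy 1.17.1. Only the level, ratio and interval steps were tested on simulated data. These were Poisson counts for the summed Lypd1 classes, with no spread between cells. Every gene was named once; full values were given to genes reaching 50 CPM in 1 of the 8 class-by-library groups, or past log2 1 between classes in both libraries, or past it between libraries over all cells or in at least 2 classes. Members and lists were chosen with earlier results of these data known. Alternatives were other pseudocounts, filters, bounds, cell sets and thinning.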

Additional observations from a re-analysis of the deposited data

Results flagged for a closer look

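For each of the 35 genes above the filter, the ratios between classes were set side by side in the 2 libraries, and the ratios of iCKO to iCON in pairs of cell sets, 140 pairs in all. In 4 pairs, all of iCKO against iCON, the ratios were of opposite sign and each had an interval that excluded 0; pairs of opposite sign with an interval that included 0 are not listed. None of these differences was tested, as each genotype was 1 library. Efna5 had a ratio of -1.81 in cells with Xist and 1.97 in cells with Y-linked RNA; the type II-like cells, in which it was high, were 30 cells with Xist in iCON and 7 with Y-linked RNA in iCKO, and without them its ratio over all cells was 0.12. Sema3a had a ratio of -0.51 in Lypd1-high and 1.25 in Calb2-high cells, the second from 6 and 36 UMIs. Epha5 had a ratio of -0.18 in cells with Xist and 0.24 in cells with Y-linked RNA. Nrp1 had a ratio of -0.58 in cells with Xist and 0.54 in cells with Y-linked RNA. Epha5 and Nrp1, too, stood higher in the type II-like cells of each library than over all its cells. Most Nrp1 UMIs of the type II-like cells of iCKO came from 1 cell. The part of the type II-like cells in the ratios of Epha5 and Nrp1 was not tested.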

How the results depend on the processing

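Counts below are guidance genes past log2 1 in either direction unless stated, with the share of all tested genes under the same setting in parentheses. As reported they were 4 (2.63%) and 3 (2.11%) for the Lypd1 classes of iCON and iCKO, 4 (2.27%) and 3 (1.44%) for the Calb2 classes, and 0 (0.923%), 1 (1.24%), 0 (0.974%), 3 (0.923%) and 1 (1.03%) for iCKO against iCON over all cells, Lypd1-high, Lypd1-low, Calb2-high and Calb2-intermediate cells. The difference of ratios between the libraries reached 1 in 0 (0.923%) (Lypd1) and 3 (1.1%) (Calb2). In Xist cells the library counts became 2 (1.63%), 2 (1.86%), 4 (2.14%), 6 (1.31%) and 2 (1.72%), and the Lypd1 ratio difference 2 (2.32%). In Y-linked cells the Lypd1 counts were 7 (2.37%) and 10 (9.31%), that of the Calb2 classes of iCKO 11 (7.08%), the first 4 library counts 3 (2.35%), 4 (5.87%), 5 (3.6%) and 11 (5.83%), and the ratio differences 5 (8.02%) and 6 (8.49%). In cells with little myelin-gene RNA the Lypd1 counts were 10 (6.02%) and 7 (4.6%), the Calb2 count of iCON 10 (5.47%), the library counts 3 (1.58%), 3 (4.55%), 3 (2.33%), 8 (2.9%) and 2 (3.51%), and the ratio differences 5 (6.21%) and 6 (6.47%); with more such RNA, Lypd1-high between libraries was 0 (1.38%). A filter of 20 CPM, which leaves out Dcc, Sema3a, Sema4d and Efna5, gave 0 (1.5%) and 0 (1.3%) for the Lypd1 classes, 0 (1.52%) and 0 (0.822%) for the Calb2 classes, 0 (0.427%) for the Calb2 ratio difference, and 0 (0.427%) and 0 (0.522%) for Calb2-high and Calb2-intermediate between libraries. In the partner list it gave 1 (1.5%) and 0 (1.3%) for the Lypd1 classes and 0 (0.427%) for Calb2-high between libraries. Without a filter the counts were 7 (3.31%) and 5 (2.87%) (Lypd1), 8 (2.73%) and 5 (2.05%) (Calb2), 1 (1.49%) and 5 (1.49%) in Lypd1-low and Calb2-high between libraries, and 3 (2.47%) and 5 (2.98%) for the ratio differences. A pseudocount of 5 gave 0 (0.759%) for the Calb2 classes of iCKO, 0 (0.277%) for the Calb2 ratio difference, and 0 (0.492%), 0 (0.277%) and 0 (0.39%) in Lypd1-high, Calb2-high and Calb2-intermediate between libraries; one of 0.2 gave 1 (1.27%) and 2 (1.39%) in Lypd1-low and Calb2-intermediate. Stricter bounds gave 0 (1.27%), 1 (0.984%) and 5 (0.912%) in Lypd1-high, Lypd1-low and Calb2-high between libraries. Thinning gave 5 (2.52%) for the Lypd1 classes of iCKO, 8 (3.58%) for the Calb2 classes of iCON, 1 (1.28%) and 0 (1.52%) in Lypd1-low and Calb2-intermediate between libraries, and 2 (2.01%) for the Lypd1 ratio difference. A mean over cells gave 1 (1.17%) in Lypd1-low and 2 (2.41%) partners for the Calb2 classes of iCON. Without thinning, 16 genes (8.89%) in place of 9 (6.56%) had shares of cells with a UMI whose intervals did not overlap between the Lypd1 classes of iCON. Among choices made after seeing the data, log2 0.5 gave 13 (8.53%) and 16 (8.68%) (Lypd1), 10 (9.13%) and 7 (7.43%) (Calb2), and 8 (7.01%), 7 (10.1%), 8 (7.62%), 11 (8.07%) and 5 (8.48%) between libraries, and for partners 7 (8.53%) and 9 (8.68%), 8 (9.13%) and 3 (7.43%), and 2 (7.01%), 4 (10.1%), 3 (7.62%) and 5 (8.48%) (over all cells, Lypd1-high, Lypd1-low and Calb2-intermediate). Intermediate Calb2 alone gave 6 (2.25%) for the Lypd1 classes of iCKO, and Lypd1-low cells with Calb2 of at least 10000 gave 3 (0.82%) between libraries. Slit2 turned in the Calb2 contrast of iCKO with Lypd1 below 100, to 0.51. Partner counts in cells with little myelin-gene RNA were 6 (6.02%) and 3 (4.6%) (Lypd1) and 5 (5.47%) and 2 (3.5%) (Calb2). The partner counts between libraries there were 0 (1.58%), 4 (4.55%), 1 (2.33%), 1 (2.9%) and 2 (3.51%). In Y-linked cells the partner counts were 0 (2.37%) and 8 (9.31%) (Lypd1) and 1 (4.25%) and 3 (7.08%) (Calb2). The cause of these moves was not tested. The number of UMIs limits genes near the filter. No paired analysis was possible because each genotype was 1 library with no replicate number.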
